A study of Mus musculus with 6 samples.

Results

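Oligodendrocyte nuclei were the nuclei that the authors' deposited annotation of the droplet experiment calls Oligodendrocyte: 298 of 7031 annotated nuclei, or 4.24%. They hold 108758 unique molecular identifiers (UMIs, each standing for 1 captured RNA molecule), and they were set against the other 6733 nuclei, which the authors placed in 11 further classes. The nuclei came from formalin-fixed, paraffin-embedded (FFPE) brain of C57BL/6J mice aged 8 to 12 weeks, cut as 50 µm scrolls that the labels call cortex. The scrolls had their paraffin taken out, were rehydrated and lysed, and single nuclei were then read on the 10x droplet platform. The labels name 3 ways of removing paraffin (mineral oil with heat, xylene with heat, xylene at room temperature) without saying which one the droplet nuclei had. They name no treatment or genotype beyond the strain, and neither sex nor the number of animals. A second readout came from single nuclei of the same kind of tissue and strain sorted into plates and read with SMART-Seq2, a full-length method. Batches 1 and 2 of these plates were used, and batch 3 was not analysed here. All droplet nuclei belong to 1 sample, so no test across nuclei was made. The classes had been made from these same counts, so every gene difference between droplet classes below is a description of the annotation and supports nothing by itself. Intervals are exact 95% intervals and cover counting error only.

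Oligodendrocytes are the glial cells that wrap axons of the central nervous system in myelin, a stack of membrane layers that speeds the conduction of impulses and lets the cell pass metabolites to the axon. They arise from dividing precursors, which lose precursor genes and switch on the genes for myelin proteins and myelin lipids as they mature. Transcription factors of the Sox family, Sox10 above all, are known to drive many of these genes. A nucleus holds much unspliced RNA, so long introns add to its counts; the authors' gene table names the reference mm10_premrna.

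Of the 20 leading genes described next, 15 matched a RefSeq promoter entry (GRCm38.p6) by symbol. The sequence before 3 start sites is shown because Prr5l had the highest ratio of all genes named, Mag codes for a myelin protein, and Mobp is a fixed marker with many copies of a Sox-type motif. Capitals mark ACAAAG or ACAATG on either strand (CTTTGT or CATTGT on the strand shown). The windows end just before the start of the gene in RefSeq and in GENCODE M21, whichever lies further upstream. They are chr2:101883028-101883277 on the minus strand, chr7:30914874-30915113 on the minus strand and chr9:120149492-120149706 on the plus strand.
Prr5l: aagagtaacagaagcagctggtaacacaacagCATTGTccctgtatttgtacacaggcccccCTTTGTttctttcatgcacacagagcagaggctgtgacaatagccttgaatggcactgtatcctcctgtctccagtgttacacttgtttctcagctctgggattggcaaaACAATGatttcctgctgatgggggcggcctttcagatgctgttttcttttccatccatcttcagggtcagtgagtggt
Mag: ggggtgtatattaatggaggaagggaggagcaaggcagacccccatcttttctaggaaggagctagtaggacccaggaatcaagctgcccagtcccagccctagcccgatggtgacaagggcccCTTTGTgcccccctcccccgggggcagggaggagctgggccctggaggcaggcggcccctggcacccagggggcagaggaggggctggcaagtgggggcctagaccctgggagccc
Mobp: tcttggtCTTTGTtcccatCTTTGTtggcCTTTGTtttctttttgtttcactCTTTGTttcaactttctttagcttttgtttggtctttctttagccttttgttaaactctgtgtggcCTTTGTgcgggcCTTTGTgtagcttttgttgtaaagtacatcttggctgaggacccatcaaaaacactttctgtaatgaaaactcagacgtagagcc
Prr5l held 3 matches, Mag 1 and Mobp 6. Over the 250 bases before the RefSeq start, 5 of the 15 leading genes with an entry held a match (33.3%), beside 25.5% of all 27025 genes of the promoter table. These letters are frequent in windows of this length, and a match is a description of the sequence, not a binding site.

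The label fitted the 4 fixed markers. Levels are given as the UMIs of a gene per 1000000 UMIs summed over a class (CPM). Mbp, Mobp, St18 and Prr5l together stood at 4827 CPM (4423 to 5258) in oligodendrocyte nuclei and between 757 (Fibroblast) and 1297 (Microglia) in the other classes. A nucleus with at least 1 UMI of any of the 4 was 78.5% of the class (73.4 to 83.0%) against 27.7% to 35.8% elsewhere. With each nucleus thinned to 220 UMIs, which left out no nucleus, the shares were 65.4% and 12.8% to 27.0%. The markers differed in how cleanly they set the class apart. Mbp, myelin basic protein, the cytosolic protein that compacts myelin, had 2133 CPM (1867 to 2426) in oligodendrocyte nuclei and 622 to 922 in the other 11 classes. Prr5l, a protein linked to the mTORC2 kinase complex, had 947.1 CPM (773.0 to 1149) against 0 to 53.0, with 0 UMIs in ExNeuron5, Fibroblast and OPC nuclei. Mobp, a myelin-associated basic protein, and St18, a zinc finger transcription factor, lay between them, at 735.6 CPM against 142.6 in all other nuclei pooled and at 1011 CPM against 171.4. The ratio of Mbp to Prr5l UMIs was 2.25 (1.78 to 2.87) in oligodendrocyte nuclei and 47.2 (34.5 to 66.2) in all others. This gap restates the unlike class ratios of Mbp and Prr5l, and Prr5l had the highest ratio of all genes named. The Mbp to St18 ratio differed less, at 2.11 (1.67 to 2.67) in oligodendrocyte nuclei and 4.41 (3.97 to 4.91) in all others. In ExNeuron3 nuclei it was 2.60 (2.11 to 3.23), an interval that overlaps the first. The source of the myelin RNA in the other classes was not tested.

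**Figure D1:**
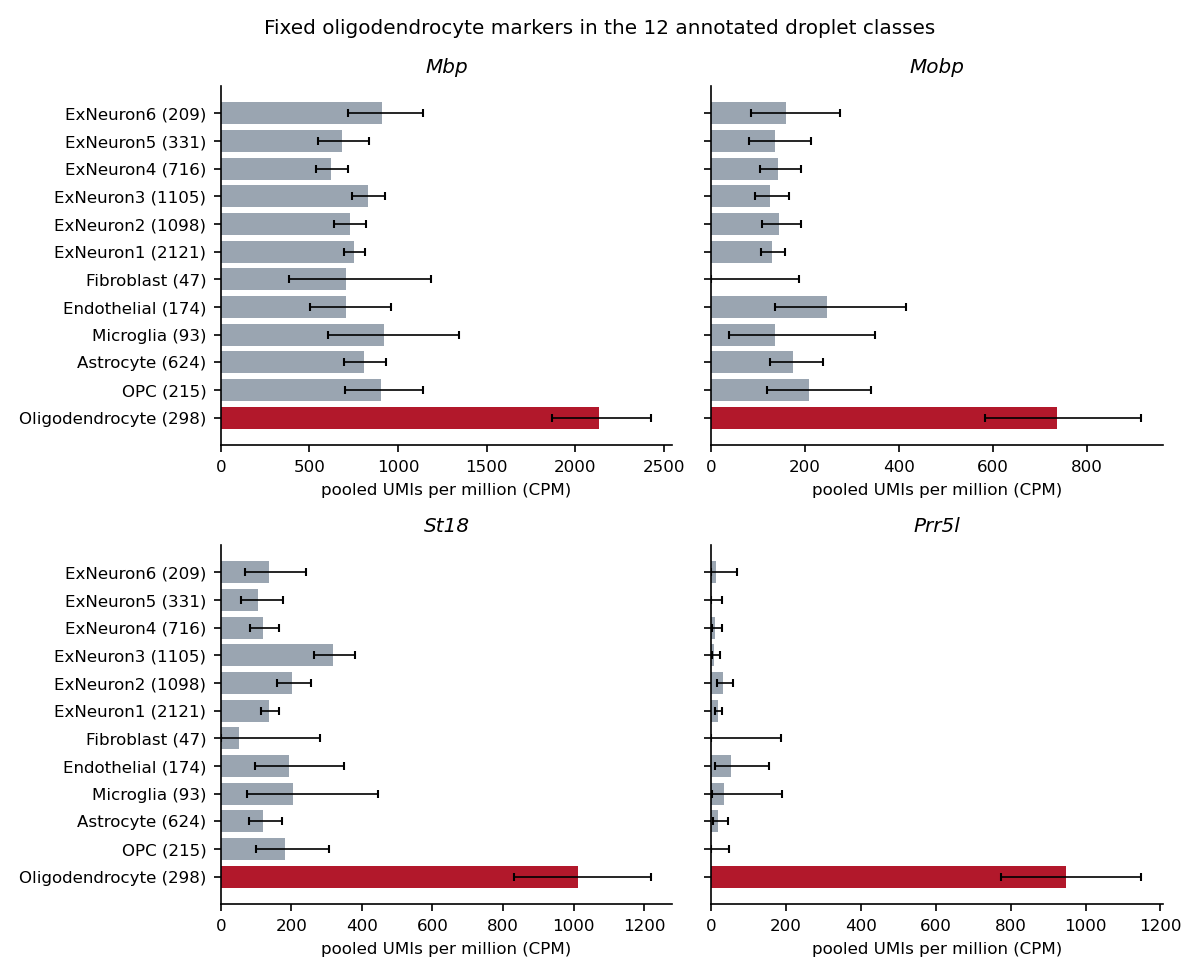
Pooled level of the 4 fixed markers (horizontal axis, CPM) in each of the 12 annotated droplet classes (nuclei in parentheses); whiskers are exact 95% Poisson intervals. The oligodendrocyte bar is the longest in each panel, while Mbp shows a bar of 622 to 922 CPM in each of the other classes and Prr5l at most 53.0.

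The 20 leading genes were those with the highest ratio of CPM in oligodendrocyte nuclei over all other nuclei, among genes with at least 20 UMIs in the class. Their ratios ran from 6.69 to 59.1, and 19 of the 20 had their highest level of the 12 classes here. The exception was Apod, the lipid carrier apolipoprotein D, at 588.5 CPM here and 958.9 in the 47 Fibroblast nuclei (19 UMIs). Of the 20, 9 had at least 200 UMIs over all droplet nuclei, the minimum set for counting genes as higher or lower; the other 11 fell short of it, Prr5l among them with 103 UMIs here and 40 elsewhere.

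Genes for proteins at the surface and the joints of the sheath were among them. Mag, the myelin-associated glycoprotein that faces the axon, had 1067 CPM against 59.5 to 170.7 in the other classes, a ratio of 12.5 (9.88 to 15.7). Mog, a glycoprotein of the outermost myelin layer, had 698.8 CPM against 0 to 82.5, a ratio of 13.3 (9.90 to 17.8). Mal, a raft-associated membrane protein, had 634.4 CPM against 0 to 102.4. Cldn11, the claudin of the tight junctions between myelin layers, had 524.1 CPM against 35.3 to 252.3. Pllp, plasmolipin, had 229.9 CPM and 182.9 in OPC nuclei, with 25 UMIs behind the first value. The ratio of Mag, Mog and Mal exceeded 10 against the pool of other nuclei, and none of their other-class levels reached the lower bound of the oligodendrocyte interval.

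Enzymes of myelin lipids were also among the leaders, on fewer UMIs. Ugt8a, which makes galactosylceramide, had 39 UMIs (358.6 CPM) and a ratio of 13.6 (8.89 to 20.5). Fa2h, which hydroxylates the fatty acids of those lipids, had 24 UMIs and a ratio of 13.8 (7.94 to 23.4). Aspa, which splits N-acetylaspartate and so frees acetate for lipid synthesis, had 29 UMIs here and 34 in all other nuclei together, a ratio of 19.6 (11.5 to 33.1). Each of these 3 genes stood highest in oligodendrocyte nuclei, though the interval of its level overlaps that of the Fibroblast nuclei. The intervals of the 3 ratios span more than a doubling. The signalling genes among the leaders were Dock10, an activator of small GTPases (717.2 CPM, ratio 9.89), Rnf220, an E3 ubiquitin ligase (744.8 CPM, 9.58), Plcl1, a phospholipase C-like protein without catalytic activity (1296 CPM, 7.95), Arhgef10, a guanine nucleotide exchange factor (211.5 CPM, 9.10), Adipor2, an adiponectin receptor (312.6 CPM, 6.91), and Efnb3, an ephrin ligand (193.1 CPM, 6.69). Further leaders were the antisense gene Gm16168 (ratio 21.4, 28 UMIs), the secreted protein gene Adamtsl1 (14.8, 20 UMIs) and the membrane protein gene Tmem88b (12.9, 27 UMIs). Several ratios were lower with another set of reference nuclei. Against the other non-neuronal classes alone the ratio was 4.74 for Plcl1, 4.07 for Adipor2, 5.50 for Arhgef10, 3.09 for Pllp (7.08 against all others), 3.90 for Cldn11 (6.74 against all others), 8.35 for Fa2h, 12.3 for Aspa and 13.4 for Gm16168. With every other class weighted equally it was 6.40 for Dock10, 9.26 for Adamtsl1 and 3.88 for Apod, whose ratio against all others was 7.98. All of these stayed at least 2-fold above the reference. Of the 20 leading genes, 8 overlap a gene on the opposite strand, Prr5l, Mog, Rnf220 and Gm16168 among them; no source used here says whether counting used the strand, so reads of such pairs cannot be told apart.

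**Figure D2:**
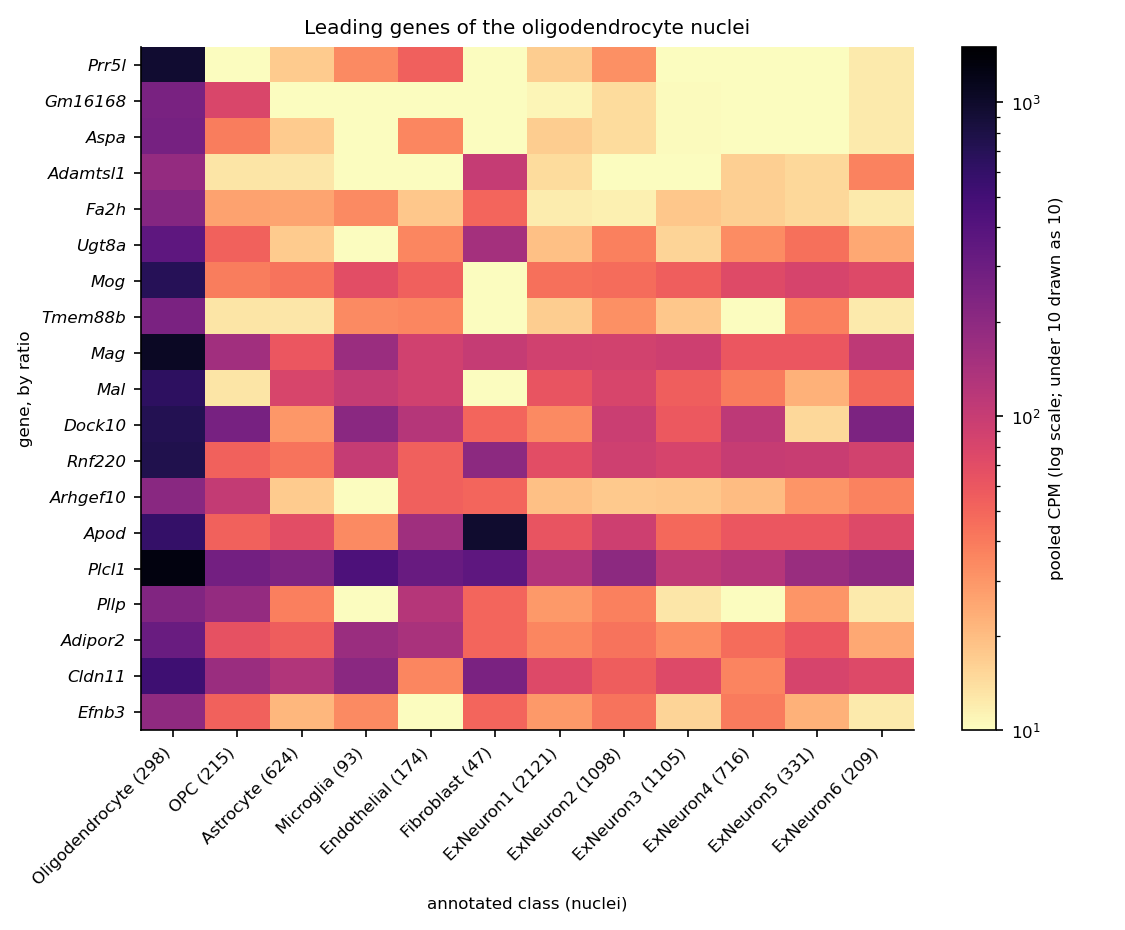
Pooled level (colour, CPM on a log scale) of 19 of the leading genes (rows, ordered by ratio) in the 12 annotated classes (columns, nuclei in parentheses). The oligodendrocyte column is the darkest in 18 rows; in the Apod row the Fibroblast column, at 958.9 CPM, is darker.

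OPC nuclei held some RNA of the leading genes. The 20 genes summed to 16413 CPM in oligodendrocyte nuclei, 2926 in OPC nuclei, 1743 in astrocytes and 1579 in all other nuclei pooled. As a share of UMIs this was 0.293% in OPC, 0.283% in Microglia and 0.283% in Fibroblast nuclei, and 1 OPC nucleus gave 24 of the 224 OPC UMIs; without it the OPC share was 0.263%, so these 3 classes have no clear order. For 7 of the 20, OPC was the highest of the other classes: Dock10 stood at 261.3 CPM there and Arhgef10 at 104.5. Genes of the precursor state went the other way. Tnr, the matrix protein tenascin-R, had 2756 CPM in OPC nuclei and 119.5 (63.6 to 204.4) in oligodendrocyte nuclei. Lhfpl3 had 1672 against 91.9 CPM, and Pcdh15, a protocadherin, 1437 against 183.9. Vcan, the proteoglycan versican, had 49 UMIs in OPC nuclei and 1 in oligodendrocyte nuclei. Pdgfra, the growth factor receptor that marks precursors, had 18 and 1, and Cspg4, the NG2 proteoglycan, 9 and 1. Of the 13 listed precursor genes, 9 had at least 200 UMIs, none was at least 2-fold higher, 3 were at least 2-fold lower (Tnr, Lhfpl3 and Pcdh15), and the median ratio against all other nuclei was 0.664.

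Over all 2734 genes with at least 200 UMIs, 111 were at least 2-fold higher in oligodendrocyte nuclei (4.06%) and 200 at least 2-fold lower (7.32%), with a median ratio of 0.911. Since the classes were made from these counts, these shares stand beside the counts of each list as background, and nothing is read from them. Gas7 (2.05) and Myo6 (2.02) lay just inside the 2-fold line, and Exoc6b (1.97) and Ttll7 (1.96) just outside. A gene that reached 200 UMIs mainly through this class had to come out higher, so the counts of the lists describe only the members that passed.

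Of the 20 genes listed for myelin structure, 19 were in the table and 11 passed. Of these 11, 9 were at least 2-fold higher, none lower, and the median ratio was 5.82. Beside the genes above they included Tspan2, a tetraspanin (652.8 CPM, ratio 5.82), and Cnp, the cyclic nucleotide phosphodiesterase of the inner cytoplasm of the sheath (496.5 CPM, 4.98). The 2 that fell short were Sirt2, a tubulin deacetylase (1.50), and Tppp, a tubulin-binding protein (1.39). Among listed transcription factors 3 of 12 passed and all 3 were higher: St18 (5.90), Zfp536 (5.62) and Zeb2 (3.25). The factors best known for oligodendrocyte identity were read from few molecules: Sox10 had 9 UMIs in the class, Olig2 4, Olig1 14 and Myrf, the myelin regulatory factor, 15. The ratio of Myrf was 9.31 (4.74 to 17.4), while those of Sox10 (4.70, 2.02 to 9.75) and Olig2 (5.74, 1.40 to 17.8) had wide intervals.

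The myelin lipid list had 3 of 17 genes above the minimum, and the 3 were higher: Scd2, a fatty acid desaturase (1655 CPM, ratio 2.99), Abca2, a lipid transporter (367.8 CPM, 2.97), and Enpp2, the secreted enzyme autotaxin (689.6 CPM, 4.30). Genes of the cholesterol pathway in this list were sparse, with 1 UMI for Fdft1 and 13 for Hmgcs1, and no direction was read for them. Of 20 genes for signalling and the cytoskeleton, 14 passed and 13 were higher, with a median ratio of 2.99. Examples were Qk, the RNA-binding protein quaking that controls splicing of myelin transcripts (1223 CPM, ratio 3.90), Pde4b, a cyclic AMP phosphodiesterase (2602 CPM, 2.60), Map7, a microtubule-associated protein (726.4 CPM, 4.56), and Sept4, a septin (478.1 CPM, 3.74). Fyn, the kinase that acts early in myelination, was the exception, at 202.3 CPM here and 770.7 in OPC nuclei, with a ratio of 1.00 against all others.

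For axon contact and adhesion 6 of 11 genes passed and 4 were higher; beside Mag and Mog these were Cntn2, a contactin of the region next to the node (ratio 3.51), and Sema6a, a transmembrane semaphorin (2.42). Nfasc (1.85) and Cadm4 (1.37) were under 2-fold. For channels, gap junctions and transport 6 of 11 measured genes passed and 4 were higher, namely Apod, Car2, a carbonic anhydrase (404.6 CPM, 6.43), Slc24a2, a sodium, potassium and calcium exchanger (2032 CPM, 3.52), and Slc44a1, a choline transporter (413.8 CPM, 2.56). The connexin genes Gjc3 and Gjb1 were under the minimum, with 17 and 4 UMIs. Of 10 genes listed for newly formed oligodendrocytes 2 passed and none was 2-fold changed. Gpr17 and Bmp4 had 0 UMIs in the class, with an exact upper bound of 33.9 CPM each. Bcas1 had 303.4 CPM here and 770.7 in OPC nuclei.

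**Figure D3:**
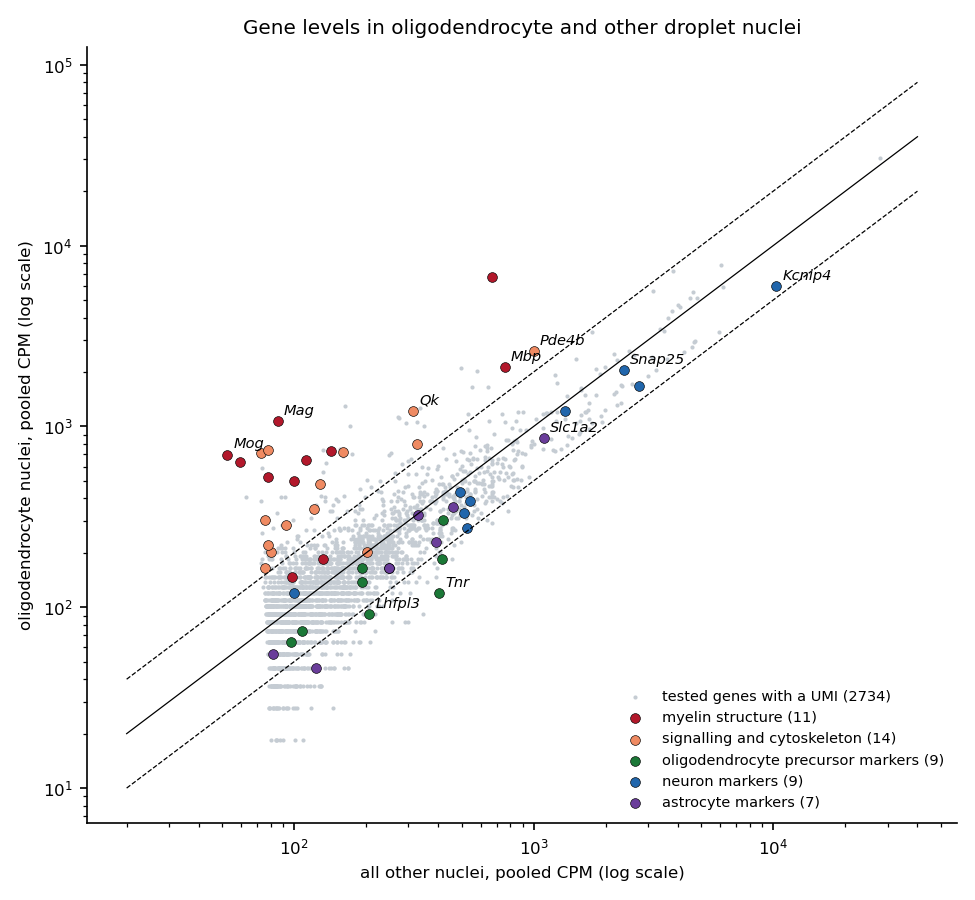
Pooled CPM of each of the 2734 tested genes in all other nuclei (horizontal) and in oligodendrocyte nuclei (vertical), both on log scales, with genes of 5 lists in colour. The solid line is equality and the dashed lines are 2-fold; myelin genes such as Mog and Mag lie above the upper line, and Tnr and Lhfpl3 below the lower one.

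The 8 lowest genes were taken among genes for which at least 20 UMIs would be expected in the class at the level of the other nuclei. They were Unc5d, a netrin receptor (ratio 0.267, 0.128 to 0.493), Ptprg, a receptor phosphatase (0.277), D430041D05Rik (0.285), Tnr (0.296), Efna5, an ephrin (0.311), Nmnat2, an axonal enzyme of NAD synthesis (0.324), Cacnb2, a calcium channel subunit (0.338), and Dok6, an adaptor protein (0.340). Against the other non-neuronal classes alone the ratio of Unc5d was 0.524, which is no longer 2-fold lower, and that of Tnr was 0.168. Each of the 8 genes rested on 7 to 13 UMIs in the class, and summed they had 662.0 CPM here and 2206 in all others. These were long genes: all 8 span over 100000 bp, with a median of 396391 bp, beside 81439 bp over all tested genes. The 20 leading genes had a median span of 36648 bp, from 4284 (Tmem88b) to 914214 bp (Adamtsl1), the 111 genes at least 2-fold higher 98898 bp and the 200 at least 2-fold lower 138994 bp. Of the lower genes with a known span 63.3% exceeded 100000 bp, against 43.6% of all tested genes. The 8 lowest and the 20 leading genes passed other count filters than the tested genes, so their spans have no like background here. Whether gene length takes part in the differences was not tested.

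RNA of other cell types was present in the oligodendrocyte nuclei. The 9 neuron markers summed to 12431 CPM (11777 to 13112), beside 12749 in OPC nuclei, 12362 in astrocytes and up to 23810 in ExNeuron3. None of the 9 was 2-fold changed, and their median ratio was 0.709. Snap25, a protein of synaptic vesicle release, was seen in 51.0% of oligodendrocyte nuclei and 57.2% of all others, at a median depth of 314 and 325 UMIs. Kcnip4, a potassium channel partner, was the fifth largest gene of the class with 648 UMIs, a ratio of 0.581. Also among the 5 largest by share of UMIs, with no correction for length, were Gm42418 (3338 UMIs, ratio 1.10), Malat1, a nuclear non-coding RNA (849 UMIs, 1.29), and Pcdh9, a protocadherin (785 UMIs, 1.88). Astrocyte markers summed to 2244 CPM against 9722 in the astrocyte class, with Gli3 at 0. Microglia markers summed to 285.0 CPM against 4472 in microglia, with Tmem119 and Inpp5d at 0. Endothelial markers summed to 193.1 CPM against 3127 in the endothelial class, with Ptprb, Abcb1a and Vwf at 0, and mural markers to 91.9 CPM, with Pdgfrb, Kcnj8 and Notch3 at 0. The inhibitory neuron list had 2 of 6 passing genes at least 2-fold lower (Gad1 and Adarb2), and none of the 8 passing cerebellar granule neuron genes was 2-fold changed. The part of such RNA in the gene levels of the class was not tested.

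The depth and mitochondrial share of the class lay within those of the others. The median nucleus had 314 UMIs (285 to 396 over the other classes) and 272 genes (253 to 329). Mitochondrial UMIs were 3.66% of the total (3.55 to 3.78%), beside 3.09% in ExNeuron1 and 3.68% in ExNeuron2 at the ends of the range. No barcode occurs more than once in the droplet table.

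Within the class, nuclei carried the leading genes in very unequal numbers. The 20 genes together gave a median of 5 UMIs and 3 genes per nucleus; 16 nuclei had 0 UMIs of them, 156 had at least 5, and the highest had 33. At least 5 were found in 52.3% of oligodendrocyte nuclei and in at most 2.33% of any other class (OPC, 5 of 215 nuclei). Over all 6733 other nuclei, 25 reached 5, among them an OPC nucleus with 24. Of the 298 nuclei, 64 had none of the 4 fixed markers, 121 had 1 of them, 81 had 2, 30 had 3 and 2 had all 4. The 64 nuclei without a fixed marker still had other myelin genes at 8868 CPM (7667 to 10204), between the 13323 of the 234 nuclei with one and the 1625 of all other nuclei. Neuron markers stood at 14417, 11928 and 18917 CPM in the same order. The 16 nuclei with no leading-gene UMI had 10 UMIs of the myelin list without the fixed markers, or 2019 CPM (968.2 to 3713). Several genes of that list, Mag, Mog and Mal among them, are leading genes, so the choice of these nuclei fixed a low level. The 1625 CPM of all other nuclei counts those genes, so the 2 values are not compared. Neuron markers of the 16 nuclei stood at 20594 CPM (16792 to 24999) and their median depth at 280.5 UMIs. The level of the leading genes was close in shallow and deep nuclei: the 150 nuclei at or under the median depth had 16808 CPM (15585 to 18101) and the 148 above it 16168 (15221 to 17159).

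**Figure D4:**
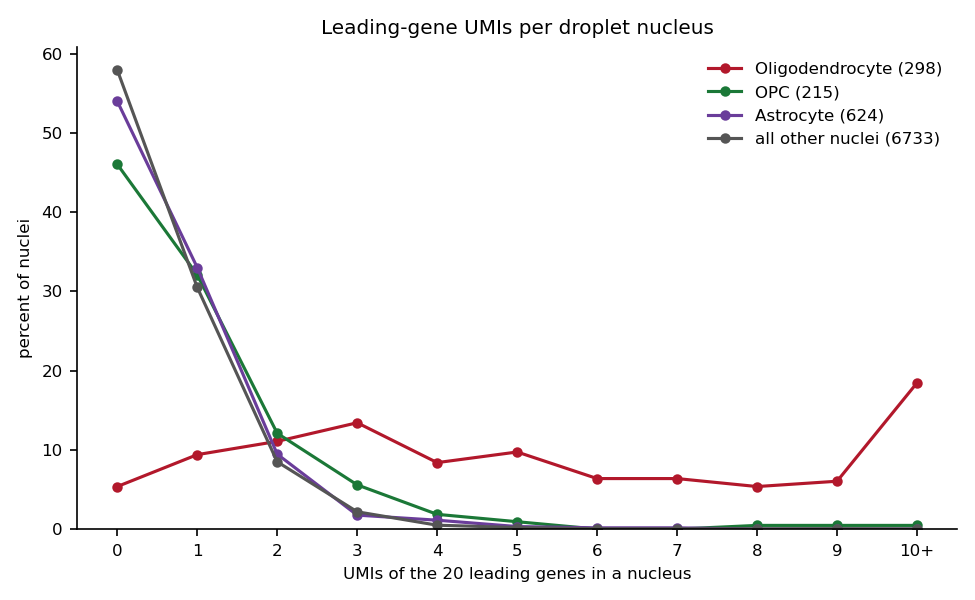
Percent of nuclei (vertical) by the number of UMIs of the 20 leading genes in a nucleus (horizontal; the last point is 10 or more), for oligodendrocyte, OPC, astrocyte and all other nuclei. Oligodendrocyte nuclei spread over the whole range, with 18.5% at 10 or more, while 58.0% of all other nuclei have 0.

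The plate nuclei gave a readout of the leading genes that had no part in choosing them. Before use, wells of the same plate batch were compared by the genes they share, since several wells stood apart from the rest by sharing most of theirs. Batch 1 held 98 nuclei, of which 16 formed 8 pairs with a Jaccard index (shared genes over genes in either) of 0.636 to 0.766, against a median of 0.140 between wells; in all 8 pairs the wells lay in the same row, in columns 5 and 8. Batch 2 held 134 nuclei, of which 68 were in 53 pairs above 0.5, with no gap at that value. Only the deepest well of each set was kept, which left 90 and 95 nuclei, called distinct here. Whether sharing wells are 1 library or carry reads of each other was not tested, so a kept well may hold RNA of more than 1 nucleus. Of the 20 leading genes 19 were in the plate tables, all but Gm16168, and a median of 2 and 3 of them had a count per nucleus.

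In batch 1 a small set of nuclei carried most of the leading genes. Of the 90 nuclei, 75 had a count of 5 or fewer of the 19 genes, 10 had at least 10, and 8 had 14 to 19 (14 was chosen after the values were seen). With at least 5 counts needed per gene, 9 nuclei in place of 10 had at least 10 genes. The nuclei were picked by how many of these genes had a count, so a high share and a frequent detection of the leading genes in them are fixed by that choice and are given as a description only. Over the 10 nuclei, the leading genes made up 0.462% to 4.53% of all counts (median 3.41%). Neuron markers were 0% to 0.999% of their counts, with a median of 0.00661% and 3 nuclei at 0, against a median of 0.893% over the other 80. In the 8 nuclei alone all 4 fixed markers had counts, the leading genes made up 1.24% to 4.53%, and neuron markers at most 0.0403%. Markers of other cell types were not absent from the 8. Inhibitory neuron markers had counts in each, at 0.0433% to 0.253% (median 0.0722%, against 0.0948% over the other 80). Cerebellar granule neuron markers ran from 0% to 0.150% and astrocyte markers from 0% to 0.337%. Precursor markers were 0.00181% to 0.189%. In the droplet oligodendrocyte nuclei the same 9 neuron markers were 12431 CPM and the leading genes 1.64% of UMIs. Count totals of the 8 ran from 20766 to 289197, against a median of 175935 in the batch. Dock10 and Plcl1 had counts in all 10, Prr5l and Mog in 9, Mal in 8 and Efnb3, the least often seen, in 3.

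Batch 2 was shallower, with a median of 45771 counts per nucleus against 175935 in batch 1. Of its 95 nuclei, 5 had at least 10 of the 19 genes, with 13 the most, and none had 14. With at least 5 counts needed per gene, only 1 of these 95 nuclei had at least 10 genes. The 5 nuclei had a median of 70458 counts and 2226 genes, against 42645.5 and 1570 in the other 90. Among the 5 were the kept well of a set of 2 sharing wells and that of a set of 3. In the 5 nuclei the leading genes were 0.269% to 1.94% of counts and neuron markers 0.0585% to 2.22%, with neuron markers present in each. The median share of neuron markers was 0.696% in the 5 and 0.622% in the other 90, and that of astrocyte markers 0.100% and 0.0425%, so the lower neuron share of the picked nuclei in batch 1 was not seen in batch 2. Apod had counts in 36 of the 95 nuclei of batch 2, against 15 of 90 in batch 1, and Mag in 20 and 19. The labels give no animal or paraffin method for either batch, so these, the depth and the batch cannot be told apart, and the difference between batches was not tested.

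**Figure D5:**
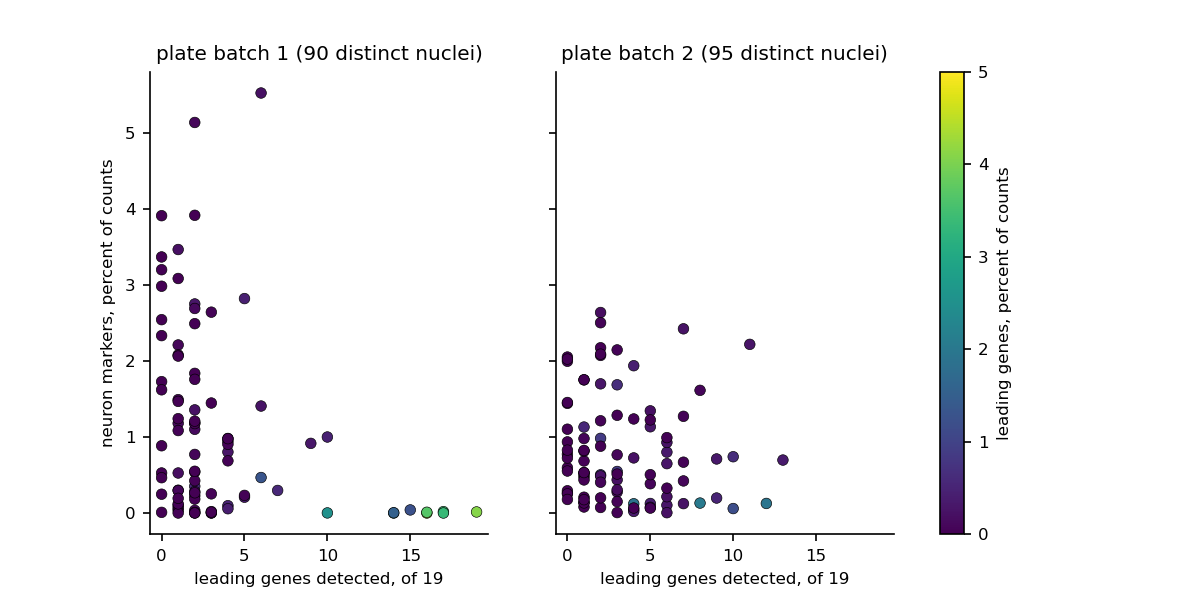
Each point is a distinct plate nucleus: the number of the 19 measured leading genes with a count (horizontal), the share of counts on the 9 neuron markers (vertical, percent) and the share on leading genes (colour, percent). In batch 1, 8 nuclei with 14 to 19 leading genes lie at or under 0.0403% neuron markers; in batch 2 no nucleus has more than 13.

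The genes found most often together with at least 3 of the 4 fixed markers in plate nuclei were ranked by the phi coefficient, averaged over the 2 batches, among 3893 genes. Among the first 5 were Apod (0.531), the tetraspanin gene Tspan2 (0.507), Pex5l, a regulator of pacemaker channels (0.502), and Pstpip2, an adaptor of the actin cytoskeleton (0.495). These coefficients describe nuclei of 2 libraries that share depth differences and carry no p. In the droplets, the ratios of oligodendrocyte nuclei over the pool of all other nuclei were 7.98 for Apod, 5.82 for Tspan2 and 3.77 for Pex5l. That of Pstpip2 was 15.9, on 18 UMIs here and 26 elsewhere. Against single classes Apod was not highest here, at 588.5 CPM beside 958.9 in Fibroblast nuclei. The phi of Apod was 0.745 in batch 1 and 0.316 in batch 2.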

How the data were processed

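Droplet nuclei came from 1 sample and plate nuclei from batches 1 and 2; batch 3 was not analysed here. Raw UMI counts of 19905 genes were deposited for the droplets, and raw counts for the plates; per the file headers the droplet reference is mm10_premrna, and the submitters' processing notes name hg19 and mm10. The software that aligned and counted reads was not given in the sources used here. Each nucleus has its class and its mitochondrial fraction in the authors' annotation. Nuclei had 235 to 998 UMIs and 220 to 792 genes; column sums equalled the authors' totals in 6900 of 7031 nuclei and differed by at most 1 in the others. Classes are the authors'. No doublet caller was run, and no nucleus was left out.

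UMIs were summed per class and divided by the class total (CPM). Poisson intervals, conditional binomial intervals of ratios and Clopper-Pearson intervals of shares are exact at 95%. Thinning drew 220 UMIs per nucleus without replacement (seed 1). Genes counted as higher or lower needed 200 UMIs in all nuclei and a 2-fold ratio. Named genes were the 20 highest and 8 lowest ratios (20 UMIs observed or expected), the 5 largest shares, the 5 most co-detected in plate nuclei, and members of 15 lists. Values of some named genes are not reported here. Evi2a, Trf, Itgam and Neurod1 were not analysed here. The members and lists were chosen with earlier results of these data known. Plate wells joined by a Jaccard index above 0.5 were taken as a set, of which the deepest well was kept and the others left out, with no counts added together. Annotation was GENCODE M21 (GRCm38), which held 19822 of the genes. The ratio and well-selection steps were tested on simulated data. Python 3.11, numpy 2.4.6, pandas 2.3.3, scipy 1.17.1 and matplotlib 3.10.9 were used. Alternatives covered filters, scaling, reference nuclei, members, depth and wells.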

Additional observations from a re-analysis of the deposited data

How the results depend on the processing

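With no filter on low counts 1953 genes were at least 2-fold higher and 7194 lower, and with at least 1000 UMIs 8 and 12; at 4-fold the counts were 28 and 10. Over the other scalings, reference nuclei and members tried, 103 to 131 genes were higher and 157 to 248 lower. Against the other non-neuronal classes alone, 111 were higher, of which 80 were among the 111 found against all other nuclei, and 216 were lower, of which 124 were among the 200. Median-of-ratios factors gave 126 higher and 157 lower. The share of nuclei with a marker became 65.4% at 220 UMIs and 94.0% with the myelin structure list, whose summed level was 15291 CPM. That list summed to 2523 CPM in all other nuclei pooled, and their share of nuclei with a UMI of it was not computed. Genes in place of UMIs gave a median of 272. With at least 2 of the 4 fixed markers as the criterion, in place of at least 10 leading genes, 98 plate nuclei were counted in place of 15, while all 4 markers had counts in 9 nuclei of batch 1 and 5 of batch 2; leaving out a plate batch gave 5 to 10. No ratio of a gene named among the highest, lowest or fixed markers crossed 1 in any alternative, and 17 of 217 such values moved beyond their interval; the cause was not tested. No paired analysis was possible because the droplet nuclei are 1 sample. With about 314 UMIs per nucleus, genes with few UMIs, such as Sox10 and Olig2, are not resolved in single nuclei.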

Other observations

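Of the 28 tested genes at least 4-fold higher in oligodendrocyte nuclei, 18 were leading or listed genes and 10 were not; these 10 are named here after their values were seen. Tmeff2, a transmembrane protein with follistatin domains, had 228 UMIs and 2096 CPM against 499.5 in all other nuclei, a ratio of 4.20. Edil3, a secreted integrin ligand, had 1122 CPM (ratio 4.14), and Mast4, a microtubule-associated kinase, 1113 CPM (4.06). Phlpp1, a phosphatase of the Akt kinase, had 708.0 CPM (4.04), and St6galnac3, a sialyltransferase, 754.0 CPM (4.86). Ctnna3, an alpha catenin, had 625.2 CPM (4.60), and Ano4, a member of the anoctamin family, 560.9 CPM (4.24). Ttyh2, a member of the tweety family (5.33), Gatm, which makes the creatine precursor guanidinoacetate (4.57), and Ppp1r16b, a regulatory subunit of a protein phosphatase (4.43), had 42 to 44 UMIs each in the class. Of all 111 genes at least 2-fold higher, 76 were outside the lists and the leading genes.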
